A study of Mus musculus with 15 samples.

Results

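Timd4, Mfge8, Mertk, Axl, Tyro3, Gas6 and Pros1 form the set of apoptotic cell recognition and TAM receptor genes described here, 7 of the 18718 genes that the array table could be reduced to. A member was a row of the table whose annotation gave exactly 1 gene symbol on that list, and of several rows per gene the row with the highest mean over the 15 arrays was to be kept. Each of the 7 genes had 1 row, so no row had to be chosen. The set was picked with values of these arrays in view, because Timd4 stands out in lymph node PDPN+BP3+ cells. For that reason the levels of all 7 genes in that population, and their differences from it, are given as a description with no test.

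The arrays measured mesenchymal cells of C57BL/6 mice aged 2 weeks, taken by sorting cells that carry the platelet-derived growth factor receptor PDGFRβ. From the thymus came a population with podoplanin and without the surface enzyme BP3 (PDPN+BP3-) and a population without podoplanin that was also positive for Ly51 (PDPN-). Axillary, brachial and inguinal lymph nodes, pooled, gave PDPN- cells, likewise Ly51-positive, PDPN+BP3- cells and PDPN+BP3+ cells. Each of the 5 populations was measured on 3 Mouse Gene 1.1 ST arrays, with RNA from 3 separate experiments. A thymus pool held 3 mice, whereas 10 to 11 animals went into a lymph node pool, so tissue cannot be told apart from pool size. No genotype, transgene or treatment separates the groups. Values are RMA signals, a normalised array signal on a log2 scale, and signals were compared between populations for the same gene and never between genes. Each population is a bulk sample, in which fewer cells of a type and less RNA per cell cannot be told apart.

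Dying cells expose phosphatidylserine on their outer surface, and phagocytes bind it either through receptors for the lipid itself or through secreted bridging proteins. Timd4 encodes TIM-4, a phosphatidylserine receptor best known from resident macrophages of the mouse. Mfge8 encodes milk fat globule EGF factor 8, which bridges phosphatidylserine to αv integrins and is known in lymphoid follicles as a product of follicular dendritic cells. Gas6 and Pros1 encode vitamin K-dependent proteins that bridge phosphatidylserine to receptor tyrosine kinases of the TAM family. The family is Tyro3, Axl and Mertk, named from their initials, and of these ligands only Gas6 is known to bind all of them. Protein S, the product of Pros1, is also an anticoagulant in plasma, and MERTK is the TAM receptor best known for the uptake of dying cells by macrophages.

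The stretches upstream of Timd4, Mfge8 and Gas6 are shown because the levels of these 3 genes set lymph node PDPN+BP3+ cells apart from the other populations in the upward direction. They come from RefSeq on build GRCm38.p6, read 5′ to 3′ on the gene's own strand and ending where the annotated gene begins: Timd4 at chr11:46810549-46810785 on the plus strand, Mfge8 at chr7:79149061-79149310 and Gas6 at chr8:13494536-13494785 on the minus strand. In the Timd4 stretch the capitals mark GGAA and GAAA spaced by 2 bases, the composite element of ETS and IRF transcription factors, and in the others they mark matches to GGGCGG, the GC box, written as CCGCCC where the match lies on the opposite strand.
Timd4: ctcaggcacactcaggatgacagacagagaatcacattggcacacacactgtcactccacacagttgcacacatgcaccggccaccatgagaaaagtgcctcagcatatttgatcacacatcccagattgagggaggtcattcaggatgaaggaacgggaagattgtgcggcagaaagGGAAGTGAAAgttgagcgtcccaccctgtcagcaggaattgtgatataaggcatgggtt
Mfge8: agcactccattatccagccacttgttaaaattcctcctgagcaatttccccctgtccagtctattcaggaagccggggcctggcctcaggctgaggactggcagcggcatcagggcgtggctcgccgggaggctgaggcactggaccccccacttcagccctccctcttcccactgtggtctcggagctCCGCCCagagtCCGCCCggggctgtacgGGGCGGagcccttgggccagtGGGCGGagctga
Gas6: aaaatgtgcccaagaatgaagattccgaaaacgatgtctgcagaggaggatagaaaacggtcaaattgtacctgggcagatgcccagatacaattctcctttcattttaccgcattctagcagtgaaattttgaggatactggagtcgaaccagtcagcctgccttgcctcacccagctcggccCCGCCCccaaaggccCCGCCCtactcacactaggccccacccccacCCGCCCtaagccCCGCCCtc

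Promoter windows of 300 bases, 250 before and 50 after the RefSeq start, were found for all 7 genes and searched on both strands; the motifs were chosen after the sequences had been read. Timd4 held 1 match to the composite element, GGAAGTGAAA on the gene's strand, beginning 72 bases before the start that the RefSeq promoter table uses. The other members held 0 matches, and among all 32851 windows 892, or 2.72%, held at least 1. The GC box occurred 4 times in the window of Mfge8, 4 times in that of Gas6, 4 times in that of Mertk, 5 times in that of Pros1, 6 times in that of Tyro3 and 2 times in that of Axl, with some of these matches overlapping each other. The Timd4 window held 0 GC boxes, and 35.7% of all windows held at least 1. GC content was 50.7% in the Timd4 window, close to the median of 52.7% over all windows, and 58.3% to 73.3% in the other members. These matches describe letters in a window and say nothing of which factor binds there.

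Before the levels are read, a reference for low signal is needed, because an RMA value has no zero. The 95th percentile of the group means of 989 olfactory receptor genes, which these cells are not known to use, lay at 2.58 in thymus PDPN+BP3-, 2.60 in thymus PDPN-, 2.61 in lymph node PDPN-, 2.52 in lymph node PDPN+BP3+ and 2.51 in lymph node PDPN+BP3- cells. Of the 7 genes, 6 had a mean above this reference in every population. Timd4 was above it in 2 of the 5, lymph node PDPN+BP3+ and lymph node PDPN+BP3- cells.

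**Figure D1:**
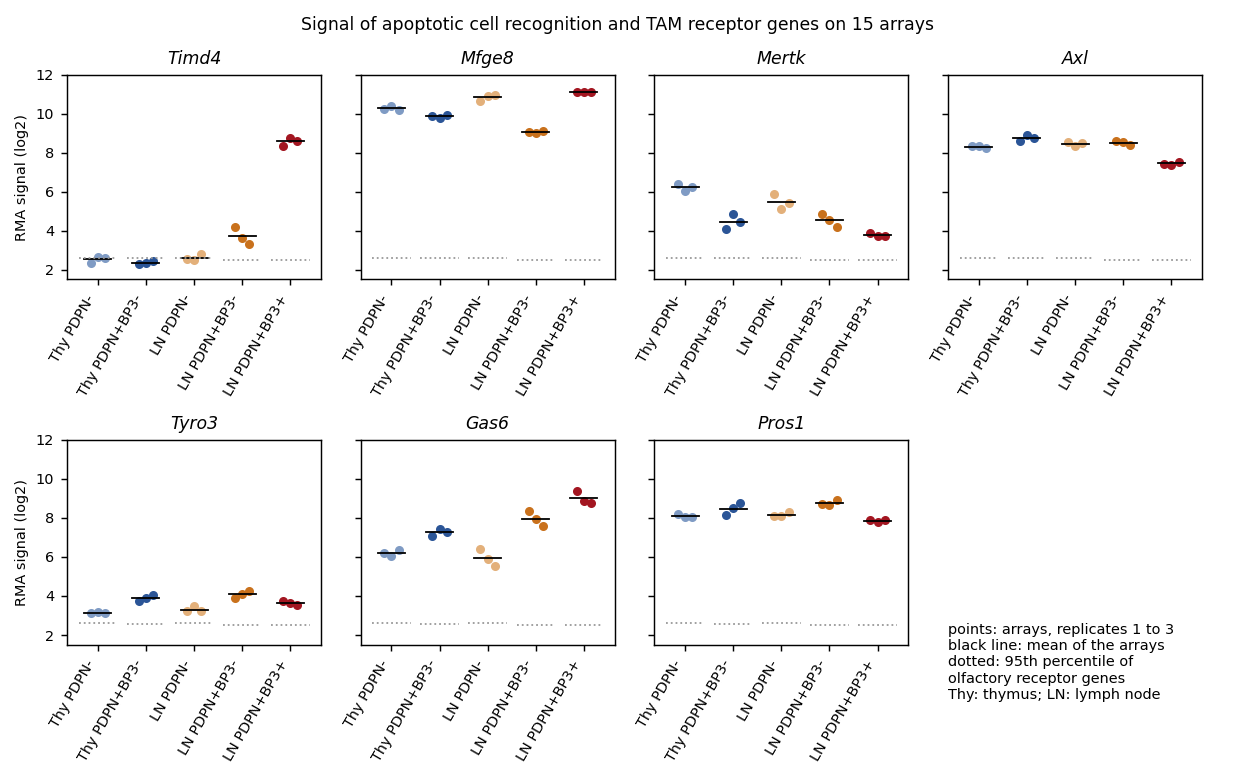
RMA signal (log2, vertical axis) of the 7 genes on 15 arrays in 5 populations; points are arrays, black lines group means and dotted lines the 95th percentile of olfactory receptor genes. Timd4 lies at 8.35 to 8.76 in lymph node PDPN+BP3+ cells, at 3.30 to 4.18 in lymph node PDPN+BP3- cells and near the reference elsewhere, while Mfge8, Axl and Pros1 lie far above the reference in all populations.

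The receptor Timd4 had signals of 8.35, 8.76 and 8.60 on the arrays of lymph node PDPN+BP3+ cells (replicates 1, 2 and 3). In lymph node PDPN+BP3- cells its signals were 4.18, 3.63 and 3.30. In lymph node PDPN- cells they were 2.53, 2.50 and 2.79. The PDPN+BP3+ arrays therefore lay far above all others, the PDPN+BP3- arrays formed an intermediate group, and neither overlapped the PDPN- arrays. In the thymus Timd4 stayed near the reference, at 2.28, 2.36 and 2.45 in PDPN+BP3- and 2.35, 2.65 and 2.61 in PDPN- cells. The order of the means was lymph node PDPN+BP3+ (8.57 ± 0.21, SD, n = 3), lymph node PDPN+BP3- (3.70 ± 0.44), lymph node PDPN- (2.61 ± 0.16), thymus PDPN- (2.54 ± 0.16) and thymus PDPN+BP3- (2.36 ± 0.09). The arrays of the last 3 overlapped between neighbours in that order.

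As a description, the signal of Timd4 in lymph node PDPN+BP3+ cells exceeded that in PDPN+BP3- cells by 4.87 ± 0.18 (log2 difference ± standard error of the limma fit) and that in PDPN- cells by 5.96 ± 0.18. Because the PDPN- arrays were at the low reference, no ratio of RNA was derived from the latter. The lower step, which was not used to choose the genes, was tested. Timd4 was higher in lymph node PDPN+BP3- than in lymph node PDPN- cells by 1.10 ± 0.18 (limma, Benjamini-Hochberg adjusted p = 0.000211, 3 arrays against 3), and higher in lymph node than in thymus PDPN+BP3- cells by 1.34 ± 0.18 (adjusted p = 5.36e-05). Neither the subsets of the thymus (-0.17 ± 0.18, adjusted p = 0.541, 95% interval -0.56 to 0.21) nor the PDPN- cells of the tissues (0.07 ± 0.18, adjusted p = 0.889, interval -0.31 to 0.45) differed past the threshold of 0.05. The subset difference itself differed between the tissues by 1.27 ± 0.25 (interaction, limma adjusted p = 0.0031). Both thymus groups and the lymph node PDPN- group lay at or under the low reference. The sizes of the called pairwise differences therefore rest on background signal on one side. The thymus subset difference and the difference between PDPN- cells of the tissues compare background with background. So does the thymus part of the interaction.

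Bst1, the gene of the sort antigen BP3, moved with Timd4 in the same comparisons. Its signals were 3.80, 3.03 and 3.06 in PDPN+BP3-, 2.46, 2.52 and 2.26 in PDPN- and 8.94, 8.71 and 8.56 in PDPN+BP3+ cells of the lymph node. Replicate 1 of lymph node PDPN+BP3- cells was thus the highest of its group for Bst1 as well as for Timd4. Bst1 was higher in lymph node PDPN+BP3- than in PDPN- cells by 0.88 ± 0.18 (limma adjusted p = 0.00136), and its subset difference also differed between the tissues (0.85 ± 0.25, adjusted p = 0.0363). Whether BP3-expressing cells in the BP3- sort carry the Timd4 signal there was not tested. Without that replicate, the Timd4 difference in lymph node remained called, and over all 14 alternatives it lay between 0.86 and 1.30 with adjusted p of at most 0.00572.

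Since TIM-4 marks macrophages, the markers of that cell type were set beside it. Of 19 measured macrophage genes, 10 had a mean above the low reference in lymph node PDPN+BP3+ cells, and 13, 6, 9 and 8 did in lymph node PDPN+BP3-, lymph node PDPN-, thymus PDPN+BP3- and thymus PDPN- cells. Array means of the list ran from 2.99 to 3.01 in PDPN+BP3+ cells, 2.86 to 3.03 in PDPN+BP3- and 2.73 to 2.77 in PDPN- cells, all of the lymph node, and from 2.49 to 2.92 in the thymus. Adgre1 (1.95, 2.05 and 1.88), Cd163 (2.19, 2.13 and 2.16), Itgam, Vsig4, Marco and Mrc1 were at or under the reference in PDPN+BP3+ cells. So were C1qb, C1qc and Cd5l.

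The 10 macrophage genes above the reference in PDPN+BP3+ cells included Csf1r (2.75, 2.37 and 2.67), Fcgr1, Siglec1 and C1qa, with means of 2.60 to 2.82. Ptprc, the leukocyte antigen CD45, averaged 3.04 there, 3.02 in PDPN+BP3- and 3.00 in PDPN- cells of the lymph node. The signalling adaptor genes of myeloid cells Tyrobp and Fcer1g averaged 3.21 and 3.00 in PDPN+BP3+ cells, 3.26 and 3.52 in PDPN+BP3- and 2.45 and 2.66 in PDPN- cells of the lymph node. Lyz2, a lysozyme gene of myeloid cells, read 4.33, 4.31 and 3.37 in PDPN+BP3+ cells, against means of 3.77 in PDPN+BP3- and 2.39 in PDPN- cells. Cd68, a lysosomal gene, read 4.70, 5.25 and 5.59 in PDPN+BP3+ cells and was higher in the other lymph node cells, at means of 5.75 and 6.73.

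Spic, the remaining gene of these 10, encodes an ETS-family transcription factor known from iron-recycling macrophages of the spleen. Its signals were 8.33, 8.51 and 8.33 in PDPN+BP3+, 5.57, 5.89 and 5.63 in lymph node PDPN+BP3- and 5.17, 4.93 and 5.69 in lymph node PDPN- cells, while all thymus arrays lay between 2.02 and 2.54. Every lymph node array thus lay above every thymus array for Spic (limma adjusted p = 7.02e-10 in PDPN+BP3- and 3.32e-09 in PDPN- cells). Both thymus groups were under the low reference, so no size of this difference is given. Without Spic the macrophage list averaged 2.69 to 2.71 on the PDPN+BP3+ arrays, 2.71 to 2.87 in lymph node PDPN+BP3- and 2.59 to 2.62 in lymph node PDPN- cells. The part of macrophages in the Timd4 signal was not tested.

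The dendritic cell list moved in the same order as Timd4 in the lymph node. Its 8 genes averaged 3.75 to 3.92 on the PDPN+BP3+ arrays, 3.24 to 3.46 in PDPN+BP3- and 2.91 to 3.13 in PDPN- cells. The antigen presentation genes Cd74 and H2-Aa followed this order, with means of 5.61, 3.70 and 2.71 for Cd74 and 4.54, 4.06 and 2.38 for H2-Aa. H2-Ab1 averaged 7.57, 5.44 and 6.19. In the thymus, where Timd4 was near the reference, the list averaged 4.31 to 4.55 in PDPN- and 3.75 to 4.36 in PDPN+BP3- cells. Cd74 and H2-Aa averaged 7.27 and 7.59 in thymus PDPN- cells, above their means in every lymph node population. Itgax, Flt3, Xcr1 and Clec9a were at or under the low reference in all 5 populations. Zbtb46, the remaining gene of the list, was above it in all 5. Its means ran from 4.46 in lymph node PDPN- to 4.72 in thymus PDPN+BP3- cells. The part of dendritic cells in the Timd4 signal was not tested. B cell genes, 5 in number, averaged 2.23 to 2.51 on all arrays.

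**Figure D2:**
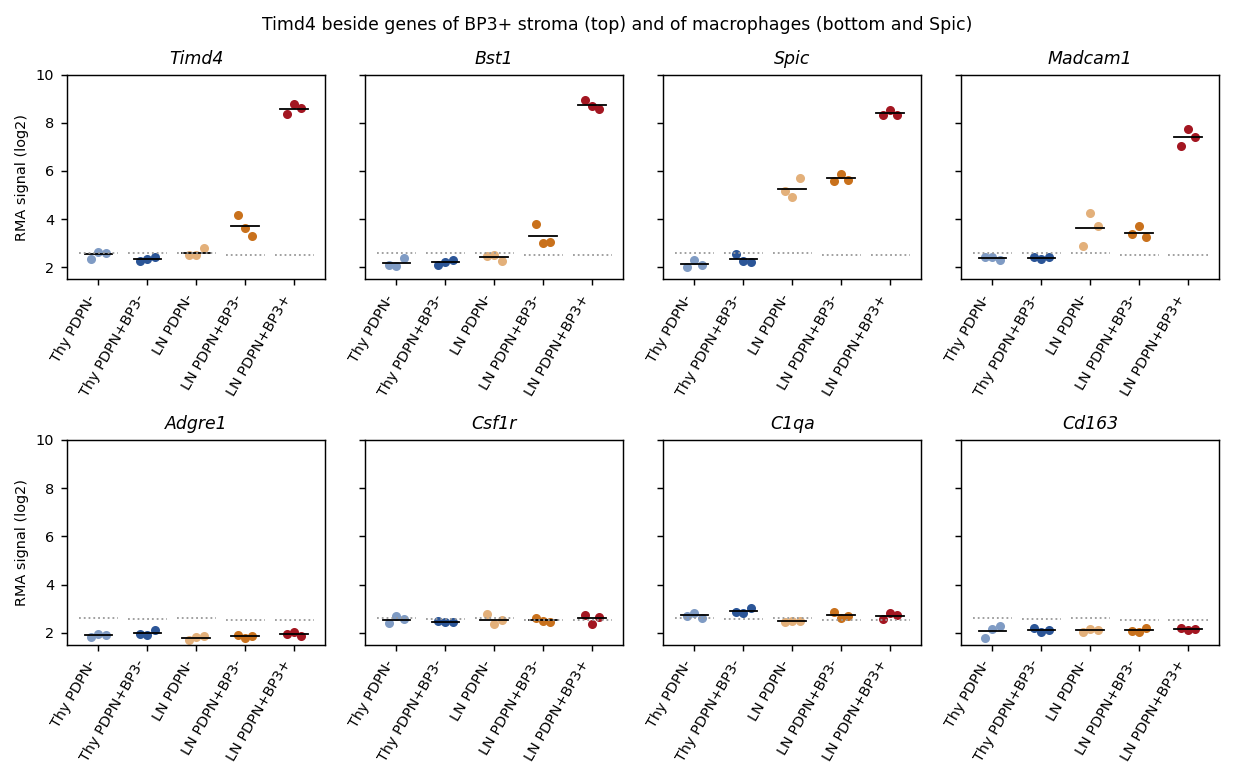
RMA signal (log2, vertical axis) of Timd4, the sort antigen gene Bst1, Spic, the adhesion molecule gene Madcam1 and the macrophage genes Adgre1, Csf1r, C1qa and Cd163 on 15 arrays in 5 populations (Thy, thymus; LN, lymph node); points are arrays, black lines means, dotted lines the 95th percentile of olfactory receptor genes. The upper row is highest in lymph node PDPN+BP3+ cells and the lower row stays between 1.69 and 3.02.

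The genes most like Timd4 over the 15 arrays were Bst1 (Pearson r = 0.995), the desmosomal cadherin Dsc2 (0.992), the fatty acyl reductase Far2 (0.992), the fibroblast growth factor receptor Fgfr4 (0.991) and the adhesion molecule Chl1 (0.991). All 5 were highest in lymph node PDPN+BP3+ cells with means of 5.07 to 9.53, against 1.96 to 4.64 elsewhere. With 3 arrays in each of 5 populations these coefficients rest mainly on the step between PDPN+BP3+ cells and the other 12 arrays, and 0 of the 5 genes were also among the 5 nearest by Spearman's rank correlation. Madcam1, an addressin of marginal reticular cells, was at 7.03, 7.73 and 7.42 in PDPN+BP3+ cells and at 2.29 to 4.26 elsewhere. The other TIM family genes of the mouse on the array, Havcr1, Havcr2 and Timd2, were at or under the low reference in every population. On chromosome 11 in GRCm38.p6, the coding genes next to Timd4 are Havcr1 and then Timd2 on one side and Sgcd on the other.

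The list of follicular dendritic cells and marginal reticular cells had its highest array means where Timd4 was highest. Sox9, Ltbr, Coch, Fcgr2b and Fcer2a did not follow this, each with its highest mean in another population. Coch averaged 3.18 in lymph node PDPN+BP3+ and 3.22 in thymus PDPN+BP3- cells, and Fcgr2b 2.47 and 3.06. The 11 measured genes averaged 5.94 to 6.22 on the PDPN+BP3+ arrays, 5.18 to 5.29 in lymph node PDPN+BP3-, 4.10 to 4.25 in lymph node PDPN-, 4.38 to 4.62 in thymus PDPN+BP3- and 3.66 to 3.89 in thymus PDPN- cells. Clu, which encodes clusterin, averaged 11.05, 9.38 and 6.47 in PDPN+BP3+, PDPN+BP3- and PDPN- cells of the lymph node. The follicle chemokine gene Cxcl13 averaged 10.72, 8.88 and 4.20, the prion protein gene Prnp 7.84, 7.23 and 6.07, and Tnfsf11, the RANK ligand gene, 7.14, 6.21 and 4.55 in the same order. Cr2, Fcer2a and Fcgr2b, receptor genes of mature follicular dendritic cells, were at or under the low reference in lymph node PDPN+BP3+ cells. The part of these cell types in the signals of Timd4 and Mfge8 was not tested.

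Mfge8, the bridging protein for integrins, was far above the low reference in every population, with array signals from 9.03 to 11.12. It read 11.12 on all 3 arrays of lymph node PDPN+BP3+ cells. In lymph node PDPN- cells it read 10.66, 10.90 and 10.97, and in lymph node PDPN+BP3- cells 9.08, 9.03 and 9.10. The PDPN+BP3- arrays of the lymph node were the lowest of all 15. Thymus cells lay between, at 10.22, 10.37 and 10.20 in PDPN- and 9.87, 9.77 and 9.92 in PDPN+BP3- cells. No neighbouring groups in this order overlapped, so the 5 populations were ordered lymph node PDPN+BP3+, lymph node PDPN-, thymus PDPN-, thymus PDPN+BP3- and lymph node PDPN+BP3-.

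Mfge8 was lower in PDPN+BP3- than in PDPN- cells in both tissues, by different amounts. The difference was -0.41 ± 0.10 in thymus (limma adjusted p = 0.00576) and -1.77 ± 0.10 in lymph node (adjusted p = 1.17e-09), where the signal of PDPN- cells was 3.42 times that of PDPN+BP3- cells. The difference was larger in the lymph node (interaction -1.36 ± 0.14, adjusted p = 8.38e-06). Between tissues Mfge8 moved in opposite directions: it was lower in lymph node than in thymus PDPN+BP3- cells (-0.78 ± 0.10, adjusted p = 3.74e-05) and higher in lymph node than in thymus PDPN- cells (0.58 ± 0.10, adjusted p = 0.00113). Without a test, PDPN+BP3+ cells exceeded lymph node PDPN+BP3- cells by 2.05 ± 0.10 and lymph node PDPN- cells by 0.28 ± 0.10. Within the PDPN+ cells of the lymph node, Timd4 and Mfge8 were therefore both higher in the BP3+ fraction, while over all populations only Mfge8 of the pair was also high in PDPN- cells.

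The genes nearest to Mfge8 over the 15 arrays were the synapse adhesion gene Lrrc4c (r = 0.955), the nuclear lamin Lmnb1 (0.937), the mitotic spindle gene Aspm (0.936), Cip2a (0.936), an inhibitor of protein phosphatase 2A, and the nuclear import factor Kpna2 (0.933). Lmnb1, Aspm and Kpna2 are known to be higher in dividing cells. Lmnb1, Aspm, Cip2a and Kpna2 had their highest mean in lymph node PDPN+BP3+ and their lowest in lymph node PDPN+BP3- cells, as Mfge8 had. By rank correlation 1 of the 5 stayed among the nearest 5.

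Gas6 encodes the bridging protein for all TAM receptors. Its signals were 9.36, 8.87 and 8.78 in lymph node PDPN+BP3+ cells. They were 8.33, 7.92 and 7.61 in lymph node PDPN+BP3- cells. In lymph node PDPN- cells they were 6.41, 5.87 and 5.53. These 3 groups did not overlap, and replicate 1 was the highest array in each. Thymus arrays read 7.05, 7.43 and 7.29 in PDPN+BP3- and 6.21, 6.07 and 6.34 in PDPN- cells. The PDPN- cells of the tissues overlapped and were the lowest groups for Gas6.

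Gas6 was higher in PDPN+BP3- than PDPN- cells by 1.05 ± 0.22 in thymus (limma adjusted p = 0.00155) and by 2.02 ± 0.22 in lymph node (adjusted p = 2.63e-06), a signal 4.05 times as high in the latter. The difference between these differences, 0.97 ± 0.31, missed the threshold (adjusted p = 0.0523) and passed it under 7 of 20 alternatives, the replicate block among them (adjusted p = 0.0348). Gas6 was higher in lymph node than in thymus PDPN+BP3- cells by 0.70 ± 0.22 (adjusted p = 0.0378), and this call was lost under 7 of 14 alternatives. Among these, cyclic loess gave 0.49 (adjusted p = 0.149), and leaving out lymph node PDPN+BP3- replicate 1 gave 0.51 (adjusted p = 0.174). Without thymus PDPN+BP3- replicate 1, whose array median of 3.58 was below the 3.77 to 3.885 of the other arrays, it was 0.59 (adjusted p = 0.14). Without a test, PDPN+BP3+ cells exceeded PDPN+BP3- cells by 1.05 ± 0.22 and PDPN- cells by 3.07 ± 0.22 in the lymph node.

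The nearest genes to Gas6 were the cytokine BAFF, encoded by Tnfsf13b (r = 0.979), Ndrg1 (0.975), the protease inhibitor Serpinb8 (0.973), the heparan sulfate sulfotransferase Hs6st1 (0.973) and transferrin, encoded by Trf (0.969). Tnfsf13b, the B cell survival factor, had means of 7.51 in lymph node PDPN+BP3+, 5.90 in lymph node PDPN+BP3-, 5.03 in thymus PDPN+BP3- and 2.96 and 2.87 in the PDPN- cells of lymph node and thymus. Of the 5 genes, 2 were also among the nearest by rank.

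Pros1, the other TAM ligand, followed another order. It read 8.73, 8.68 and 8.94 in the lymph node's PDPN+BP3- cells, 8.11, 8.11 and 8.30 in its PDPN- cells and 7.89, 7.81 and 7.87 in PDPN+BP3+ cells. The PDPN+BP3+ arrays were the lowest of all 15, the opposite end from Gas6. In the thymus it read 8.14, 8.49 and 8.77 in PDPN+BP3- and 8.21, 8.03 and 8.07 in PDPN- cells, which overlapped. The TAM ligands thus stood apart from the rest in opposite directions in lymph node PDPN+BP3+ cells, Gas6 highest there and Pros1 lowest.

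Pros1 was higher in PDPN+BP3- than PDPN- cells of the lymph node by 0.61 ± 0.14 (limma adjusted p = 0.00331). In the thymus the difference of 0.36 ± 0.14 missed the threshold (adjusted p = 0.0597). It passed under 4 of 14 alternatives: cyclic loess (0.55, adjusted p = 0.00111), centring each array on its median, array weights, and leaving out thymus PDPN+BP3- replicate 1 (0.53, adjusted p = 0.00431). The interaction was 0.25 ± 0.19 (adjusted p = 0.48), with a 95% interval from -0.17 to 0.66. Without a test, Pros1 was lower in PDPN+BP3+ than in PDPN+BP3- cells of the lymph node by -0.93 ± 0.14 and than in PDPN- cells by -0.32 ± 0.14. Maf, a transcription factor gene, was the nearest to it (r = 0.949), and the aminopeptidase Lvrn (0.912) shared its high level in lymph node PDPN+BP3- cells with a mean of 6.23, against 4.36 in thymus PDPN+BP3- cells and 1.88 to 2.07 elsewhere. By rank, 3 of the 5 nearest genes of Pros1 were kept.

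The endothelial list also had its highest array means in lymph node PDPN+BP3- cells, where Pros1 was highest. The 8 endothelial genes averaged 4.08 to 4.51 on these arrays, 3.21 to 3.75 on those of lymph node PDPN- cells, 3.20 to 3.44 in thymus PDPN+BP3-, 3.52 to 3.72 in thymus PDPN- and 3.19 to 3.42 in lymph node PDPN+BP3+ cells. Cdh5, the endothelial cadherin, read 5.32, 5.22 and 5.53 there, against 3.52, 3.40 and 2.70 in lymph node PDPN- cells, and Pecam1 read 6.00, 4.86 and 5.22 against 4.50, 4.73 and 3.72. Other genes of the list did not share this order: Emcn averaged 4.99 in these cells, 5.04 in lymph node PDPN- and 7.72 in thymus PDPN- cells, and the lymphatic gene Lyve1 4.33, 4.57 and 4.26. Their part in the differences of Pros1, Timd4 and the other genes between these populations was not tested.

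The TAM receptors are Tyro3, Axl and Mertk. Mertk read 6.38, 6.02 and 6.26 in thymus PDPN- cells and 5.87, 5.10 and 5.44 in lymph node PDPN- cells. It read 4.09, 4.84 and 4.43 in thymus PDPN+BP3- cells, 4.84, 4.57 and 4.20 in their lymph node counterparts and 3.88, 3.74 and 3.74 in PDPN+BP3+ cells. All 6 PDPN- arrays lay above all 9 PDPN+ arrays, and the PDPN+BP3- cells of the tissues overlapped.

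Mertk was lower in PDPN+BP3- than in PDPN- cells of the thymus by -1.77 ± 0.21 (limma adjusted p = 5.76e-06), a signal 3.40 times as high in PDPN- cells, and of the lymph node by -0.93 ± 0.21 (adjusted p = 0.00326). These differences did not differ from each other past the threshold (0.83 ± 0.30, adjusted p = 0.0817, interval 0.20 to 1.46), although leaving out lymph node PDPN- replicate 1 brought this to 1.03 (adjusted p = 0.0231). Lymph node PDPN- cells were below thymus PDPN- cells by -0.75 ± 0.21 (adjusted p = 0.032), a call lost without thymus PDPN- replicate 1 (adjusted p = 0.132) or 3 (0.0936) and without lymph node PDPN- replicate 2 (0.156) or 3 (0.0855). In PDPN+BP3- cells the tissues differed by 0.08 ± 0.21 (adjusted p = 0.853, interval -0.36 to 0.53), and the sign of this value was not stable. Without a test, PDPN+BP3+ cells were lower than PDPN- cells by -1.68 ± 0.21 and than PDPN+BP3- cells by -0.75 ± 0.21.

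Mertk is itself a gene of macrophages. The macrophage markers had array means of 2.60 to 2.92 in thymus PDPN-, 2.49 to 2.77 in thymus PDPN+BP3- and 2.73 to 2.77 in lymph node PDPN- cells, and Adgre1 was under the low reference in all 5 populations. The lists of T cells and epithelium had higher array means in the thymus than in the lymph node. The 8 measured genes of T cells and thymocytes averaged 4.89 to 5.63 in thymus PDPN- cells, 4.90 and 4.96 on replicates 2 and 3 of thymus PDPN+BP3- cells and 3.47 on its replicate 1, against 2.70 to 2.93 in the lymph node. The 6 epithelial genes averaged 3.86 to 4.25 in thymus PDPN- and 2.74 to 3.01 in lymph node cells. In thymus PDPN+BP3- cells they averaged 3.29 on replicate 1, again the lowest of its group, 3.73 on replicate 2 and more than that on replicate 3. Krt8, a keratin gene, averaged 7.67 in thymus PDPN- and 6.55 in thymus PDPN+BP3- cells. The dendritic cell list averaged 4.31 to 4.55 and 3.75 to 4.36 there, lowest on the same replicate, and H2-Aa averaged 7.59 and 6.64. Their part in the thymus differences of the 7 genes was not tested, and without replicate 1 the Mertk difference in thymus, like that of Gas6, Axl, Tyro3 and Mfge8, stayed past the threshold.

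The PDPN- and PDPN+BP3- subsets also differed in mesenchymal markers, in the direction of Mertk and Mfge8 for pericyte genes and in the reverse direction for fibroblast genes. The 8 genes of pericytes and smooth muscle averaged 9.14 to 9.33 in thymus PDPN- against 5.27 to 5.42 in thymus PDPN+BP3- cells. In the lymph node they averaged 9.04 to 9.11 in PDPN-, 5.79 to 6.20 in PDPN+BP3- and 6.44 to 6.52 in PDPN+BP3+ cells. The 6 fibroblast genes averaged 3.91 to 4.28 in thymus PDPN- against 9.67 to 9.91 in thymus PDPN+BP3- cells, and 5.70 to 5.89, 8.95 to 9.22 and 6.09 to 6.35 in PDPN-, PDPN+BP3- and PDPN+BP3+ cells of the lymph node. The part of these subset identities in the differences of Mertk, Mfge8 and the other 5 genes was not tested.

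The genes nearest to Mertk were the kinase Snrk (r = 0.991), the endocytic adaptor Epn2 (0.982), Ccdc141 (0.981), the actin regulator Mical2 (0.978) and Lrrfip2 (0.975). All 5 had their highest mean in thymus PDPN- cells, followed by lymph node PDPN- cells. By rank, 2 of the 5 were kept.

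Axl differed little between populations except in lymph node PDPN+BP3+ cells, where it read 7.43, 7.38 and 7.53. It read 8.62, 8.91 and 8.75 in thymus PDPN+BP3- cells, 8.36, 8.33 and 8.22 in thymus PDPN- cells, 8.53, 8.36 and 8.48 in lymph node PDPN- cells and 8.58, 8.55 and 8.40 in lymph node PDPN+BP3- cells. The PDPN+BP3+ arrays were the lowest of all 15, and the subsets outside them overlapped within the lymph node. In the thymus Axl was higher in PDPN+BP3- than PDPN- cells by 0.46 ± 0.10 (limma adjusted p = 0.00325). In the lymph node the difference was 0.05 ± 0.10 (adjusted p = 0.801), with a 95% interval from -0.17 to 0.28.

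The interaction for Axl, -0.40 ± 0.15, missed the threshold (adjusted p = 0.0915) and passed it with cyclic loess (-0.61, adjusted p = 0.00572), with centring on the array median (-0.53, adjusted p = 0.0296) and with array weights. The same 3 settings moved the difference between lymph node and thymus PDPN+BP3- cells, -0.25 ± 0.10 (adjusted p = 0.121), past the threshold. Without a test, Axl in PDPN+BP3+ cells was below PDPN- cells of the lymph node by -1.01 ± 0.10 and below PDPN+BP3- cells by -1.06 ± 0.10. Its nearest genes were the metalloprotease Adam19 (r = 0.984), the laminin Lama2 (0.973), the lysyl oxidase-like Loxl2 (0.970), the matrix gene Ecm1 (0.969) and the growth factor Igf2 (0.968), each with its lowest mean in PDPN+BP3+ cells. Lama2 averaged 2.73 there and 8.10 to 9.81 elsewhere, and 0 of the 5 were among the nearest by rank.

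Tyro3 had signals of 3.14 to 4.26 over all arrays, above the low reference of 2.51 to 2.61 but in the compressed lower range of the array. It read 3.92, 4.10 and 4.26 in lymph node PDPN+BP3- cells and 3.76, 3.91 and 4.04 in thymus PDPN+BP3- cells. PDPN- cells gave 3.22, 3.49 and 3.21 in lymph node and 3.14, 3.16 and 3.14 in thymus, and PDPN+BP3+ cells gave 3.74, 3.66 and 3.52. All 9 PDPN+ arrays lay above all 6 PDPN- arrays, the reverse of Mertk. Tyro3 was higher in PDPN+BP3- than PDPN- cells by 0.76 ± 0.12 in thymus (limma adjusted p = 0.000118) and 0.79 ± 0.12 in lymph node (adjusted p = 9.14e-05). The interaction was 0.03 ± 0.17 (adjusted p = 0.941, interval -0.33 to 0.39), and no difference between the tissues passed the threshold (0.19 and 0.16 ± 0.12 in PDPN+BP3- and PDPN- cells, adjusted p = 0.325 and 0.517).

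Without a test, Tyro3 in PDPN+BP3+ cells was 0.33 ± 0.12 above PDPN- and differed by -0.45 ± 0.12 from PDPN+BP3- cells of the lymph node. The nearest genes were Srpx (r = 0.962), the adaptor Efs (0.960), the microfibril protein Mfap2 (0.959), the collagen chaperone Fkbp14 (0.956) and the protease inhibitor Tfpi2 (0.956), each lowest in thymus PDPN- cells. By rank, 1 of the 5 was kept.

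**Figure D3:**
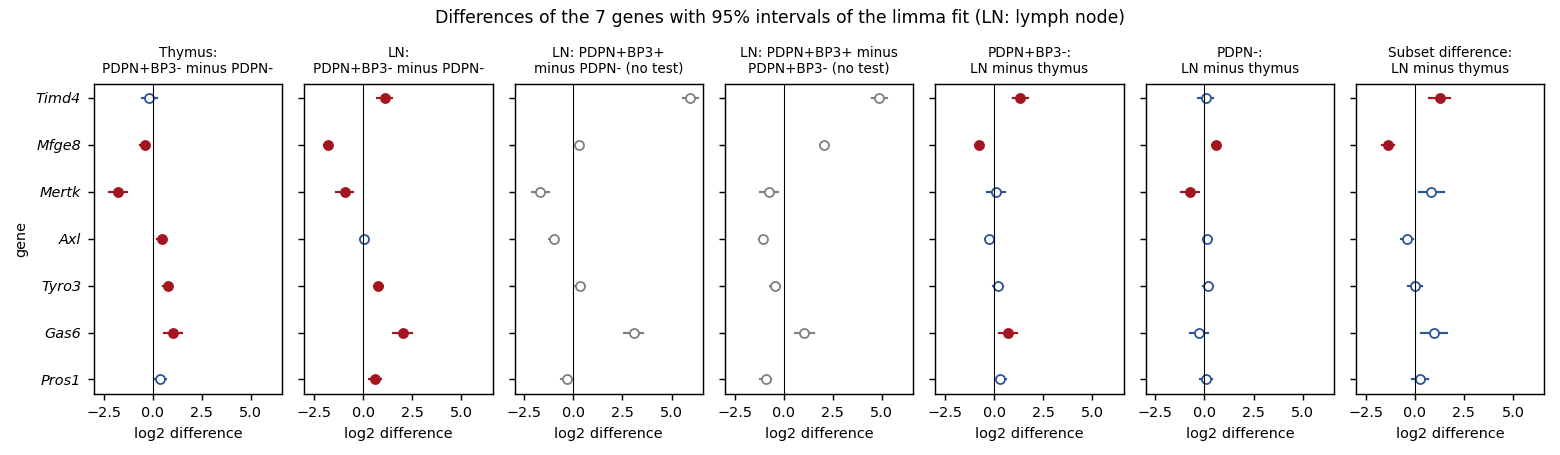
Log2 difference (horizontal axis) of each of the 7 genes (rows) in the 6 pairwise comparisons and the interaction, with 95% intervals of the limma fit (LN, lymph node); filled red points passed an adjusted p of 0.05, open blue points did not, and open grey points are untested. Mertk lies below and Tyro3 and Gas6 above 0 for PDPN+BP3- minus PDPN- cells in both tissues, and the Timd4 points of the PDPN+BP3+ comparisons, at 5.96 and 4.87, are the farthest from 0.

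Set side by side, PDPN+BP3- cells differed from PDPN- cells in 5 of the 7 genes in the thymus, with Axl, Gas6 and Tyro3 higher and Mertk and Mfge8 lower. Of all genes 28.5% passed in that comparison, 10.3% higher and 18.2% lower, and cyclic loess turned these shares to 14.4% and 11.8%. The median difference of the 7 genes was 0.36, against -0.05 over all genes. In the lymph node 6 of the 7 passed, with Gas6, Timd4, Tyro3 and Pros1 higher and Mertk and Mfge8 lower, at a background of 23.1% (13.4% higher, 9.79% lower). The medians were 0.61 for the 7 genes and -0.01 for all. These comparisons share no array but use the same variance estimate for each gene, so their calls are not independent. Gas6, Tyro3, Mertk and Mfge8 passed with the same sign in each.

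Between the tissues fewer of the genes passed. In PDPN+BP3- cells 3 did, Timd4 and Gas6 higher and Mfge8 lower in lymph node, at a background of 17.1% (11.8% higher, 5.29% lower; 7.12% and 8.46% with cyclic loess). In PDPN- cells 2 did, Mfge8 higher and Mertk lower in lymph node, at a background of 9.61% (4.42% higher, 5.19% lower). The interaction was called for 2 of the 7, Timd4 and Mfge8, with 12.7% of all genes called (8.67% higher, 4.05% lower; 4.61% and 6.49% with cyclic loess).

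Against the other lymph node populations, the PDPN+BP3+ arrays did not overlap for any of the 7 genes. Of all genes, 39% were apart between PDPN+BP3+ and PDPN- cells (21.3% higher, 17.7% lower) and 32.9% between PDPN+BP3+ and PDPN+BP3- cells (17.4% higher, 15.5% lower). Timd4, Gas6, Mfge8 and Tyro3 lay above the PDPN- arrays and Axl, Mertk and Pros1 below them. Against PDPN+BP3- cells Timd4, Mfge8 and Gas6 lay above, and all 3 TAM receptors and Pros1 below. These counts use the population that the set was chosen on, the comparisons share the PDPN+BP3+ arrays, and nothing is read from them about the set.

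Other genes of the pathway were counted in lists chosen with earlier results of these arrays known. Of 24 receptors and bridging proteins outside the 7 genes, 6 were low in every population: Havcr1, Havcr2, Timd2, Cd300lf, Megf10 and Edil3. In the thymus 5 were higher and 3 lower in PDPN+BP3- than in PDPN- cells, with a median of -0.08. In the lymph node 3 were higher and 4 lower, with a median of 0.03. Of all genes 28.5% were called in that thymus comparison and 23.1% in that of the lymph node, with medians of -0.05 and -0.01. Cd36, a scavenger receptor for oxidised lipid and apoptotic cells, had the largest differences. It read 6.72, 6.54 and 6.05 in thymus PDPN- cells and 2.94, 2.87 and 2.69 in thymus PDPN+BP3- cells, and was lower in the latter by -3.60 ± 0.30 (limma adjusted p = 8.19e-08).

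The lymph node difference of Cd36 was -3.70 ± 0.30 (adjusted p = 7.96e-08). Scarf1, a scavenger receptor for complement-coated dying cells, was likewise lower in PDPN+BP3- cells of thymus (-1.50 ± 0.16) and lymph node (-1.41 ± 0.16). The integrin subunit gene Itgb3, whose product pairs with αv as a receptor of Mfge8, was higher in PDPN+BP3- cells of both (1.32 ± 0.15 and 1.42 ± 0.15), as was the calreticulin and lipoprotein receptor Lrp1 (1.44 ± 0.19 and 2.13 ± 0.19). Adjusted p was at most 2.14e-05 for these differences.

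In lymph node PDPN+BP3+ cells, where 27.3% of all genes passed against PDPN- and 16.2% against PDPN+BP3- cells (limma), 2 of the 24 were higher and 6 lower than in PDPN- cells, and 1 was higher and 6 lower than in PDPN+BP3- cells. Cd36 had a mean of 2.43 there, under the low reference. Itgb3 was lower than in PDPN+BP3- cells by -1.48 ± 0.15 (limma adjusted p = 1.73e-06), Itgb5, the other β subunit known to bind Mfge8, by -0.75 ± 0.16 (adjusted p = 0.00249) and the phosphatidylserine-binding annexin Anxa5 by -0.60 ± 0.12 (adjusted p = 0.00137). Scarb1, a lipoprotein and phosphatidylserine receptor, had the largest interaction of the list at 1.79 ± 0.28 (limma adjusted p = 0.000351). In the interaction 1 of the 24 was higher and 3 lower, beside 8.67% and 4.05% of all genes.

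**Figure D4:**
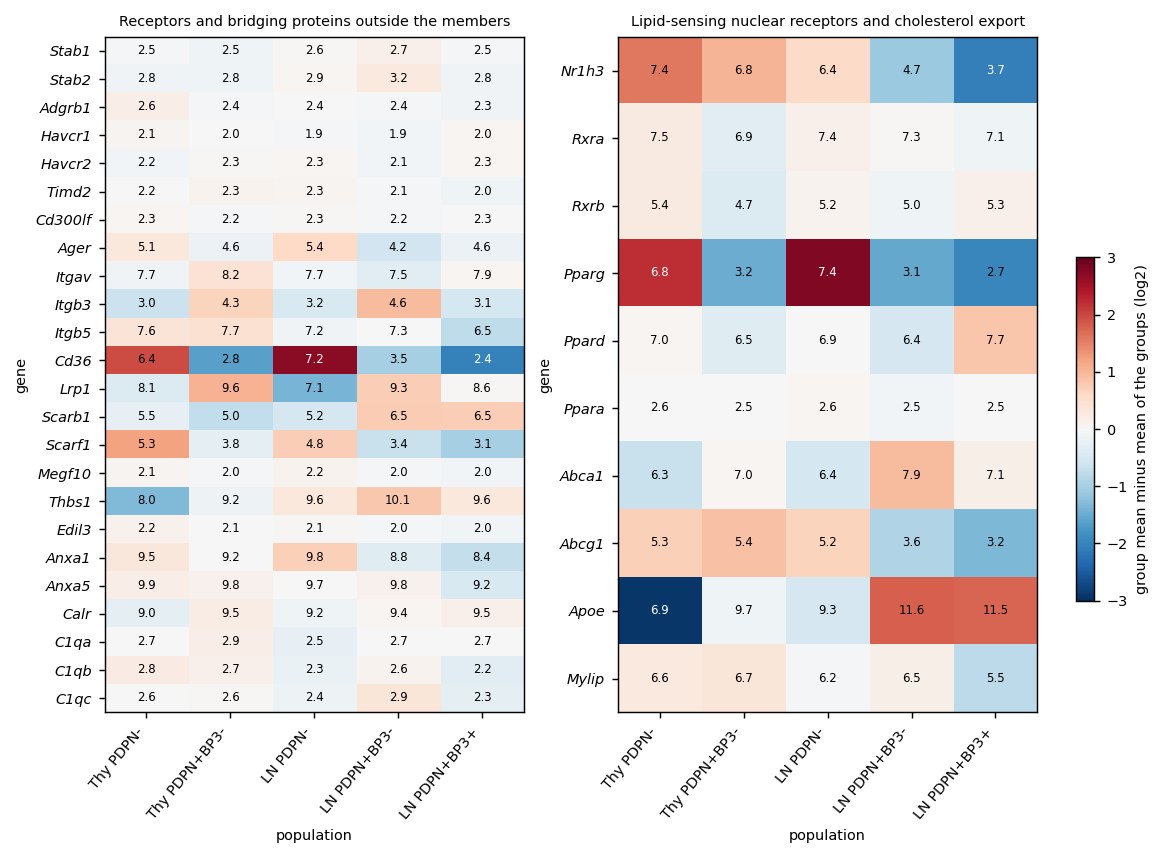
Group means (RMA signal, log2, printed in each cell) of 24 receptors and bridging proteins (left) and 10 genes of lipid sensing and cholesterol export (right) in 5 populations (Thy, thymus; LN, lymph node); colour is the group mean minus the mean of the groups. Cd36 and Pparg are high in PDPN- cells, Apoe averages 11.57 and 11.52 in the PDPN+ cells of the lymph node, and Nr1h3 is lowest, at 3.73, in lymph node PDPN+BP3+ cells.

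Lipid-sensing nuclear receptors are known in mouse macrophages to be activated by lipid from engulfed cells and to induce Mertk and bridging proteins. Of 10 measured genes of these receptors and of cholesterol export, 2 were higher and 5 lower in thymus PDPN+BP3- than PDPN- cells, and 2 higher and 4 lower in the lymph node, against 28.5% of all genes called in thymus (10.3% higher, 18.2% lower) and 23.1% in lymph node (13.4% higher, 9.79% lower). Pparg was lower in PDPN+BP3- cells of thymus (-3.69 ± 0.15, limma adjusted p = 1.04e-11) and lymph node (-4.32 ± 0.15, adjusted p = 3.11e-12). Nr1h3, which encodes the liver X receptor LXRα, was lower in PDPN+BP3- than PDPN- cells of the lymph node by -1.70 ± 0.20 (adjusted p = 6.02e-06). It was also lower in PDPN+BP3+ than PDPN- cells by -2.64 ± 0.20 (adjusted p = 2.92e-08), where 3 of the 10 were higher and 4 lower. Of all genes 27.3% were called in that comparison.

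Nr1h3 shared with Mertk its highest mean in thymus PDPN- cells (7.37) and its lowest in PDPN+BP3+ cells, but in PDPN+BP3- cells of the thymus it averaged 6.80, above lymph node PDPN- cells at 6.36. Ppard, another lipid sensor, was higher in PDPN+BP3+ than in PDPN+BP3- cells (1.33 ± 0.14, limma adjusted p = 3.68e-06), with 1 of the list higher and 3 lower. Of all genes 16.2% were called there. Apoe, the secreted lipid carrier, read 11.57, 11.43 and 11.57 in PDPN+BP3+ cells, 11.63, 11.61 and 11.46 in PDPN+BP3- cells and 9.80, 8.96 and 9.08 in PDPN- cells, all of the lymph node, so that both PDPN+ groups lay above the PDPN- arrays. Its subset difference was 2.79 ± 0.20 in thymus (adjusted p = 1.12e-08) and 2.29 ± 0.20 in lymph node (adjusted p = 1.82e-07).

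Gas6 and Pros1 need γ-carboxylation, which depends on the vitamin K cycle. Of 15 genes of this cycle and of other Gla proteins, 4 were higher and 1 lower in thymus PDPN+BP3- than PDPN- cells, and 6 higher and 0 lower in the lymph node, with medians of 0.11 and 0.12. Of all genes, 10.3% were higher and 18.2% lower in that thymus comparison, and 13.4% and 9.79% in that of the lymph node. Vkorc1, the vitamin K epoxide reductase, was higher in PDPN+BP3- cells of thymus (1.33 ± 0.11, limma adjusted p = 1.02e-07) and lymph node (1.38 ± 0.11, adjusted p = 8.91e-08). It was also higher in PDPN+BP3+ than PDPN- cells (1.01 ± 0.11, adjusted p = 3.48e-06), with 4 of the list higher and 0 lower there, and lower in PDPN+BP3+ than in PDPN+BP3- cells (-0.37 ± 0.11, adjusted p = 0.0319), where 0 were higher and 2 lower. Of all genes, 27.3% were called in the former comparison and 16.2% in the latter.

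The engulfment machinery acts downstream of the receptors and rearranges actin around the bound cell. Of its 17 measured genes, 3 were higher and 5 lower in thymus PDPN+BP3- than PDPN- cells, and 4 higher and 5 lower in lymph node. The shares over all genes were 28.5% called in thymus and 23.1% in lymph node. They were 27.3% for lymph node PDPN+BP3+ against PDPN- cells and 16.2% for PDPN+BP3+ against PDPN+BP3- cells. Elmo1, which activates Rac together with Dock1, was higher in PDPN+BP3- cells of thymus (1.22 ± 0.23, limma adjusted p = 0.000542) and lymph node (2.35 ± 0.23, adjusted p = 6.13e-07) and in PDPN+BP3+ against PDPN- cells (2.61 ± 0.23, adjusted p = 1.55e-07), where 5 genes of the list were higher and 5 lower. Gulp1, an adaptor of engulfment receptors, was higher in PDPN+BP3- than PDPN- cells of the lymph node (1.65 ± 0.13, adjusted p = 4.95e-08) and lower in PDPN+BP3+ than in PDPN+BP3- cells (means of 5.91 and 6.91, adjusted p = 2.3e-05), where 2 of the list were higher and 2 lower.

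TAM receptors are cut from the surface by ADAM10 and ADAM17 and in the mouse induce SOCS and Twist genes, which limit cytokine signals. Of 13 measured genes of receptor shedding and feedback, 3 were higher and 5 lower in thymus PDPN+BP3- than PDPN- cells, and 4 higher and 2 lower in the lymph node, beside 28.5% and 23.1% of all genes called. Adam10 (-0.55 ± 0.14, limma adjusted p = 0.0098) and Adam17 (0.52 ± 0.14, adjusted p = 0.0145) moved in opposite directions in the lymph node. Timp3, an inhibitor of ADAM17, was lower in PDPN+BP3- cells of thymus (-1.53 ± 0.17, adjusted p = 2.91e-06) and lymph node (-1.26 ± 0.17, adjusted p = 3.05e-05). Twist2 was 2.36 ± 0.22 higher in lymph node PDPN+BP3- than PDPN- cells (adjusted p = 3.59e-07), and it differed by -2.22 ± 0.22 between PDPN+BP3+ and PDPN+BP3- cells (adjusted p = 1.12e-06), where 1 of the list was higher and 4 lower. Against PDPN- cells, 1 was higher and 3 lower in PDPN+BP3+ cells. Of all genes, 16.2% were called for PDPN+BP3+ against PDPN+BP3- cells and 27.3% for PDPN+BP3+ against PDPN- cells.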

How the data were processed

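Total RNA of 15 sorted samples was amplified (Ovation Pico WTA System V2) and hybridised to Affymetrix Mouse Gene 1.1 ST arrays, per the labels' protocols. The deposited values are log2 signals that the authors made by RMA in the Affymetrix Expression Console, per the submitters' processing notes. Software versions, genome build and log base were not given in the sources used here. Base 2 was taken from the values, which run from 1.07 to 12.07.

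Of 24758 transcript clusters, 20844 had 1 symbol in the array annotation, 1735 several and 2179 none, and 20817 of the first matched a mouse gene table of GRCm38.p6 by gene identifier with 0 symbols changed. The row with the highest mean was kept for each of 18718 genes, with no filter on low values. In limma 3.58.1 (R 4.3.3), 1 mean was fitted for each population across the 15 arrays, and variances were shrunk by eBayes with no trend, with 10 residual and 5.50 prior degrees of freedom. P-values are two-sided and adjusted over the 18718 genes of each comparison (Benjamini-Hochberg), with a threshold of 0.05. The fit was tested on simulated data. P-values measure the spread between pools. The number of arrays limits the precision.

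The members and the lists were chosen with earlier results of these data known. Named genes are the 7 members, the sort antigens, up to 4 genes with the smallest adjusted p past the threshold from each of 6 pathway lists in each comparison, and the 5 genes with the highest Pearson correlation with each member over 15 arrays, leaving out predicted genes, olfactory and vomeronasal receptors and small RNAs. Marker genes came from 10 lists, of macrophages, dendritic cells, B cells, T cells, follicular dendritic and marginal reticular cells, endothelium, epithelium, pericytes and smooth muscle, fibroblasts and sort antigens. Alternatives were cyclic loess, centring arrays on the median, a trended robust prior, only the groups compared, the replicate number as a block, a filter on low values, the mean over transcript clusters, array weights and leaving out each array.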

Additional observations from a re-analysis of the deposited data

Results flagged for a closer look

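Timd4 and Mfge8 differed between tissues in their subset difference, by a test of that difference. For Timd4 the difference of PDPN+BP3- minus PDPN- cells was 1.10 ± 0.18 in lymph node and -0.17 ± 0.18 in thymus, and the interaction was 1.27 ± 0.25 (limma adjusted p = 0.0031, adjusted p of at most 0.0106 over 20 alternatives). For Mfge8 the differences were -1.77 ± 0.10 and -0.41 ± 0.10, and the interaction was -1.36 ± 0.14 (limma adjusted p = 8.38e-06, at most 7.13e-05 over 20 alternatives). Both thymus groups and the lymph node PDPN- group of Timd4 lay at or under the low reference, where a difference of signal is compressed. Groups of 3 arrays are too small for an outlier test here.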

How the results depend on the processing

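Directions that turned belonged to differences that were not called. With arrays centred on the median, the lymph node subset difference of Axl was -0.017. Lymph node minus thymus for Mertk in PDPN+BP3- cells was -0.15 with cyclic loess, -0.042 with median centring, -0.062 with array weights and -0.098 to 0.28 when an array was left out. For Timd4 in PDPN- cells it was -0.023 to 0.13 when an array was left out. The Tyro3 interaction was -0.11 with cyclic loess, -0.098 with median centring, -0.044 with array weights and -0.053 to 0.12 when an array was left out. Members called for PDPN- cells of lymph node against thymus numbered 1 to 2 when an array was left out, and members called in the interaction 2 to 4, and 4 with array weights. The replicate number as a block gave 5313 calls in thymus against 5337 without it, 4315 against 4332 in lymph node and 2357 against 2381 in the interaction, where 3 members were called with the block and 2 without. Arrays of the same number had deviations that correlated at -0.17 to 0.29. In the thymus subsets these were -0.17 to -0.14. Lymph node PDPN+BP3- and PDPN- arrays gave 0.29, -0.030 and 0.18, and -0.17, 0.010 and -0.062 between other numbers. PDPN+BP3+ arrays gave 0.15, 0.074 and 0.064 with PDPN+BP3- arrays, and -0.017, 0.081 and -0.066 with PDPN- arrays. Whether the numbers pair lymph node sorts cannot be told from these values. No pairing was used in the main fit, and the block moved no other member's call. Cyclic loess moved the split of calls from 36% higher to 55% in the thymus subsets, from 69.1% to 45.7% in lymph node against thymus PDPN+BP3- cells and from 68.2% to 41.5% in the interaction; the cause was not tested. Median centring moved the lymph node PDPN+BP3+ against PDPN- split from 58.9% to 47.8%. Of 840 values of single genes under alternatives, 773 kept their direction and their side of the threshold or stayed within the spread. Many of these could not move, so the share does not measure stability. Each member had 1 row, so the mean over transcript clusters left its levels and differences as they were. The trended prior, the block, the filter and the fit of only the groups compared also left the differences unchanged. The 840 include the counts of nearest genes kept by rank, which all moved. Of 180 counts, 172 stayed near the main count. Counts were judged by their size alone, not by their split into higher and lower. Number of arrays and low signal limit the values of Timd4 outside the PDPN+ lymph node cells and of Tyro3.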

Other observations

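Genes that expose phosphatidylserine on dying cells, call phagocytes or hold them off were also measured, and 12 of 14 listed genes were on the array. Of these, 5 were higher and 1 lower in thymus PDPN+BP3- than PDPN- cells, 3 higher and 0 lower in the same comparison in lymph node, and 6 higher and 2 lower in lymph node PDPN+BP3+ than PDPN- cells. Of all genes 28.5%, 23.1% and 27.3% were called in these comparisons. Cx3cl1, the chemokine fractalkine, which is released by dying cells as a call to phagocytes, was higher in thymus PDPN+BP3- than PDPN- cells by 3.25 ± 0.16 (limma adjusted p = 1.15e-10) and in lymph node PDPN+BP3+ than PDPN- cells by 2.04 ± 0.16 (adjusted p = 4.81e-08). Plscr1, a phospholipid scramblase gene that also responds to interferon, was higher in thymus PDPN+BP3- than PDPN- cells by 3.98 ± 0.17 (adjusted p = 2.13e-11) and in lymph node PDPN+BP3+ than PDPN+BP3- cells by 1.89 ± 0.17 (adjusted p = 4.29e-07). Its interaction was -3.97 ± 0.24 (adjusted p = 1.87e-08), where 0 genes of the list were higher and 3 lower, beside 8.67% and 4.05% of all genes.

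Sirpa, the receptor of the CD47 signal that holds off uptake, was higher in PDPN+BP3- than PDPN- cells of thymus (1.02 ± 0.17, limma adjusted p = 0.000199) and lymph node (1.14 ± 0.17, adjusted p = 7.44e-05). Cd47 itself was higher in lymph node PDPN+BP3- than PDPN- cells by 0.79 ± 0.11 (adjusted p = 3.82e-05). Ano6, a calcium-activated scramblase, was lower in lymph node PDPN+BP3+ cells than in PDPN- cells (-0.86 ± 0.14, adjusted p = 0.000129) and PDPN+BP3- cells (-0.77 ± 0.14, adjusted p = 0.000595).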
